A study of Mus musculus with 64 samples.

Results

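Insertions of the PiggyBac (PB) and Sleeping Beauty (SB) transposons were examined in 9 genes of B-cell receptor signalling, Cd79b, Syk, Lyn, Blnk, Bank1, Plcg2, Prkcb, Cd22 and Ptpn6, in diffuse large B cell lymphomas (DLBCLs) and control tails of mice. The genes were taken by name, as every line of the deposited insertion table whose gene column held 1 of the 9 symbols, out of 15716 gene names in that column. They drew 230 lines of 385883. Of these, 3 lay near no target motif of their transposon, and the rest gave 226 insertions at 212 sites, out of 299612 insertions analysed in all.

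The screen had 4 groups with 1 sample per mouse. In PB there were 30 tumours and 12 tails, and in SB 11 tumours and 11 tails. The transposase was expressed constitutively from the Rosa26 locus (Rosa26PB or Rosa26SB), and mobilised copies of the ITP transposon, a gene trap built to inactivate genes whichever way round it lands. SB mice came from crosses in which both parents were Blm m3/m3, 1 carrying Rosa26SB/+ and the other the transposon line ITP1-C or ITP2-M, so that SB tumours and SB tails shared the hypomorphic Blm allele, while PB mice were ITP animals described before, and the labels used here give a genotype code per mouse (IMPB or IMSB) without Blm status, transposon line or age. All mice were on a mixed C57BL/6, 129Sv and FVB background. Tumours were taken from spleen, lymph nodes, mesenteric masses and other sites, and tails of other mice, by the animal codes, served as control tissue. Since the transposase was not restricted to B cells, tails carried insertions too, and these were made in a tissue other than the one in which the lymphomas arose.

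The B-cell receptor is a surface immunoglobulin that signals through its CD79A and CD79B chains. After antigen binding, the Src-family kinase LYN phosphorylates these chains, SYK docks on them and phosphorylates the adaptor BLNK, and BLNK holds phospholipase PLCG2, whose products release calcium and activate protein kinase C beta (PRKCB) on the way to NF-kappaB. CD22 and the phosphatase SHP-1, encoded by Ptpn6, dampen the signal, and LYN also acts on this inhibitory arm by phosphorylating CD22. BANK1 is a B-cell scaffold that binds LYN and the calcium release channel of the endoplasmic reticulum. Signalling by this receptor sustains many human DLBCLs, and its pathway is a drug target in that disease.

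PB inserts at the letters TTAA and SB at TA, so the number of such sites sets how many insertions a gene can receive. The sites hit in the most samples are shown first, since a position hit again in another mouse is the finest level at which mice can be compared. The 30 bases around each are from the plus strand of the GRCm38 reference genome (mm10), with the TTAA in capitals and in lower case the bases on its sides. The list follows the number of samples and then of reads.

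Prkcb intron 5, chr7:122466334-122466363: agtttggtctcttTTAAataaatgttccag
Ptpn6 coding exon 3, chr6:124732323-124732352: gttcagtgggtacTTAAggtggatgatggt
Syk intron 3, chr13:52613671-52613700: cttacttctgataTTAAaaaaaaaaattta
Syk intron 1, chr13:52597276-52597305: gccggtactttctTTAAgcactggggttaa
Ptpn6 intron 3, chr6:124731901-124731930: ctctaagaccttaTTAAgacagggacctag
Cd22 intron 2, chr7:30879612-30879641: tggaggacacactTTAAcacaccggtgggg
Bank1 intron 4, chr3:136247598-136247627: gcttttattcttaTTAAaatacaaaatttc
Syk intron 1, chr13:52584997-52585026: cgtattggactccTTAAactgtgctgggct

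The Prkcb site was hit in 4 samples, 2 tumours and 2 tails, and the Ptpn6 exon 3 site in 3 tumours and no tail. Each of the other sites listed was hit in 2 PB tumours and no tail. In all, 11 of 164 PB sites in the 9 genes (6.71%) were hit in 2 or more samples, against 4.30% of all PB sites, and none of 48 SB sites, against 0.572% of all SB sites. Of the 4 insertions of these genes that ranked highest by reads in their own tumour, 1 lay at the Syk intron 3 site above, and the other 3, shown next, lay at sites hit in 1 tumour each.

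Bank1 intron 2 of PB tumour 11, chr3:136279469-136279498: ttctggtgtgctgTTAAgttgctagtggac
Bank1 intron 1 of PB tumour 9, chr3:136288841-136288870: atgaacctgaacaTTAAagaattgtagcca
Lyn intron 10 of PB tumour 1, chr4:3780010-3780039: cacacattctcccTTAAcagctatggctac

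Samples of PB tumours carried 5230 ± 2526 insertions (SD, n = 30), and those of PB tails carried 4010 ± 1925 (SD, n = 12). SB tumours had 3983 ± 2225 (SD, n = 11) and SB tails 4617 ± 1495 (SD, n = 11). The smallest sample held 757 insertions and the largest 10800. Insertions of PB tumours had fewer reads each, with a median of 6 against 21 in PB tails, while SB insertions had 13 in tumours and 19 in tails. Reads per sample were not fewer, with a median of 136578.5 in PB tumours and 122874.5 in PB tails. Sample names were written in a joined form (in PB 22 tumours and 5 tails, in SB 11 tumours and 7 tails) or a separated form (in PB 8 tumours and 7 tails, in SB 4 tails), so results were also computed within each form. Two-sided intervals below are exact Poisson intervals at 95% and cover counting error only, and reads of PCR products without molecular identifiers are not independent molecules.

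Every PB tumour carried an insertion in at least 1 of the 9 genes. The PB tumours held 159 such insertions, the PB tails 19 in 9 of 12 samples, the SB tumours 24 in 10 of 11 and the SB tails 24 in 9 of 11. Per 10000 insertions of a sample, the 9 genes together received 10.4 ± 6.10 in PB tumours (SD, n = 30), 3.52 ± 2.55 in PB tails (SD, n = 12), 5.27 ± 3.10 in SB tumours (SD, n = 11) and 4.54 ± 3.79 in SB tails (SD, n = 11). The PB tumours thus lay higher on average, but from 1.48 to 28.4 they overlapped the PB tails, which reached 7.36. PB tumours carried a median of 2 of the 9 genes hit and at most 7, in PB tumour 15. Of the 6 PB tumours with 10 or more insertions in these genes, 5 had between 7698 and 9445 insertions in all, whereas PB tumour 5 had 3515, of which 8 lay in Lyn.

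**Figure D1:**
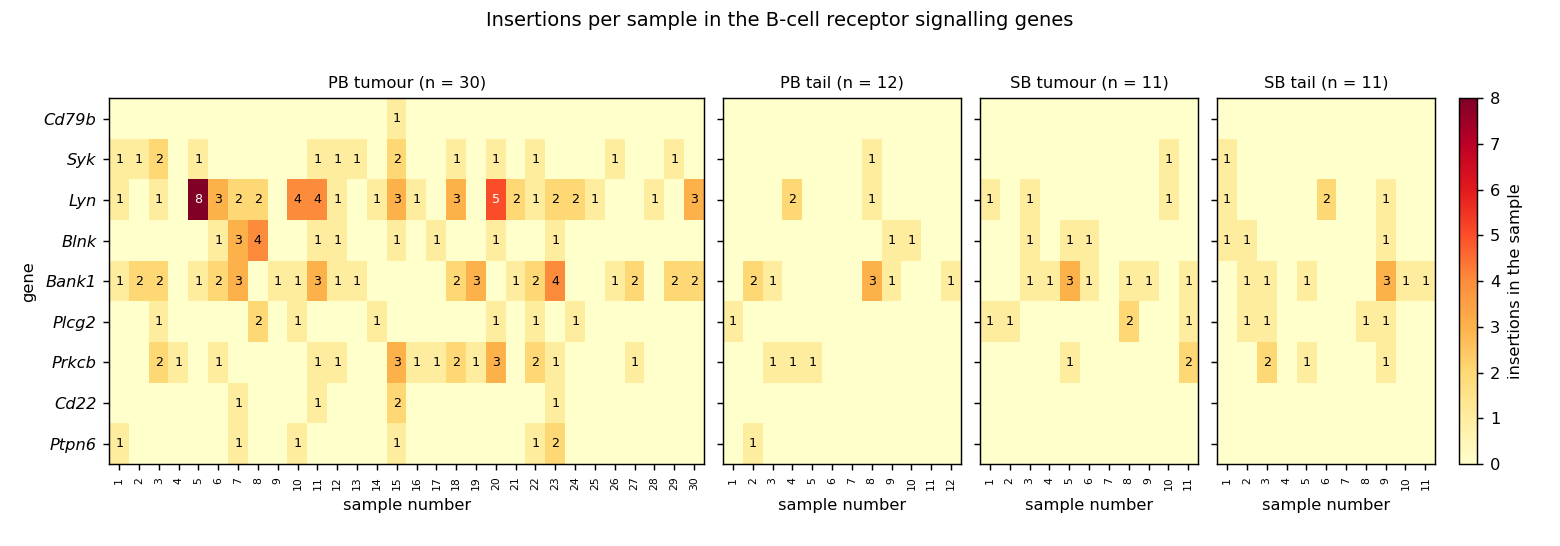
Number of insertions in each gene (rows) and sample (columns, numbered within the 4 groups); colour and digit give the number of insertions, and an empty cell is 0. Lyn was hit in 21 of 30 PB tumours with up to 8 insertions in a tumour, and in 2 of 12 PB tails, while Cd22 and Cd79b were hit in PB tumours alone.

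Whether a gene was hit more often than its sites allow was asked with the simpler form of the study's selection model, a Poisson model tested one-sided by Wald's method, in which the expected number follows from the TTAA or TA sites of the gene body and the insertions of its chromosome. This form does not correct for the insertion preferences of the transposon. In the study, adding such a correction lowered the number of genes detected in PB and in SB tumours, more so in PB. The paper proposes that the correction removes putative false positives. It was not applied here. A gene was called with a Bonferroni-adjusted p below 0.05 and insertions in at least 3 samples and 5% of samples. In PB tumours 4 of the 9 genes were called, Lyn, Ptpn6, Syk and Cd22, against 4.97% of the 22553 genes tested. The 9 genes were chosen with earlier results of these data known, so this count is not independent of those results. None of the 9 was called in PB tails (1.25% of genes called), in SB tumours (0.398%) or in SB tails (0.180%). These groups held 48122, 43813 and 50789 insertions, against 156888 in PB tumours. Fewer were thus expected per gene, and the lack of calls there does not show a lack of excess. The median of observed over expected insertions across the 9 genes was 4.97 in PB tumours, 1.0 in PB tails, 0.904 in SB tumours and 0.894 in SB tails. Over all 22553 genes tested in PB tumours it was 0.758. Among genes with at least 1 expected insertion in PB tumours, the median was 2.29 over the 6 of the 9 that met this limit and 1.22 over the 10560 genes that did. With the same limit applied in each other group, the median was 1.22 over 5 of the 9 in PB tails. It was 1.46 over 6 in SB tumours and 1.42 over 6 in SB tails. The medians over all 9 thus also reflect genes that expect under 1 insertion.

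**Figure D2:**
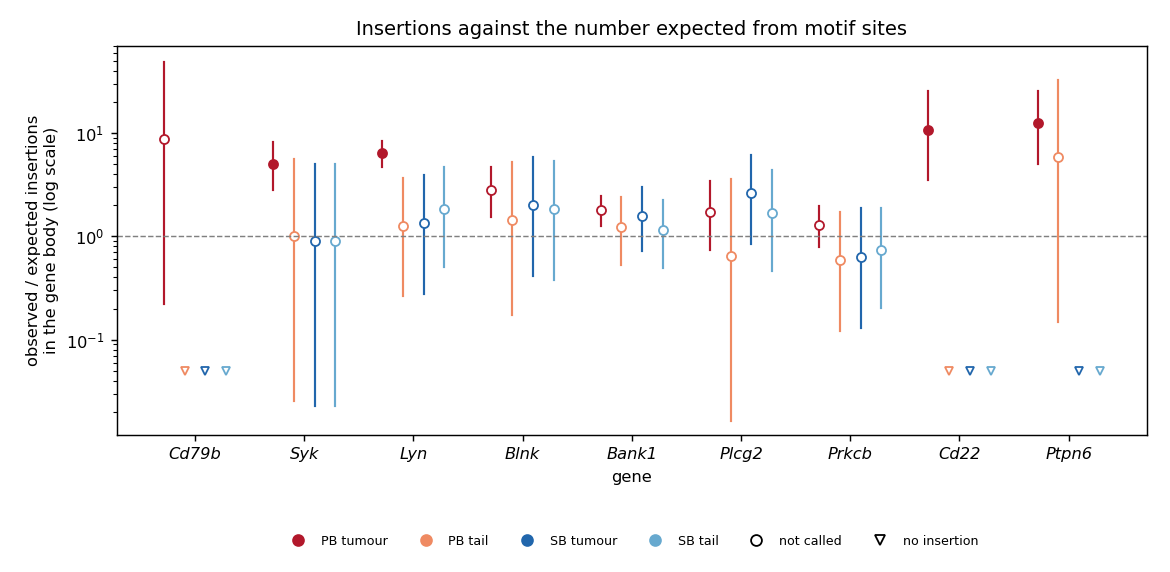
Observed over expected insertions in the gene body (log scale) for each gene and group, with exact Poisson 95% intervals for counting error; filled circles were called, open circles were not, and triangles at the bottom mark genes without an insertion. Filled circles occur in PB tumours alone, at 4.97 for Syk, 6.36 for Lyn, 10.8 for Cd22 and 12.4 for Ptpn6.

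Of the receptor itself, only Cd79b, the signalling chain CD79B, was among the genes. Its 3.22 kb body on the minus strand of chromosome 11 (chr11:106311341-106314562) has 7 TTAA sites, and 1 insertion was found, in intron 1 of PB tumour 15, with 2 reads. At an expected number of 0.114 in PB tumours and less in each other group, a lack of insertions in so small a gene was not informative at this depth.

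Lyn, the Src-family kinase that starts the signal and also feeds its inhibitory arm, was the gene with the most insertions in PB tumours, while Bank1 had more in each of the other groups. It spans 114 kb of the plus strand of chromosome 4 (chr4:3678068-3791612) with 643 TTAA sites. PB tumours held 51 insertions in 21 of 30 tumours, with 8 tumours at 1 insertion, 5 at 2 and 8 at 3 or more, a median of 1 and a highest value of 8 in PB tumour 5. PB tails held 3 in 2 of 12, SB tumours 3 in 3 of 11 and SB tails 4 in 3 of 11.

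Of the 51, 47 lay inside the RefSeq gene body, where 7.39 were expected, a ratio of 6.36 (95% interval 4.67 to 8.46, Bonferroni-adjusted Wald p = 8.72e-33), and the other 4 lay downstream of its end, within what the gene column still assigned to Lyn. The ratio ranged from 5.53 to 6.66 when each tumour was left out in turn and remained past the threshold each time. It was 6.72 in the tumours with joined names and 5.04 in those with separated names, where the adjusted p was 0.0535. With at most 1 insertion counted per tumour it was 3.28 (adjusted p = 5.73e-04).

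Set against tails, Lyn received 3.35 ± 4.39 per 10000 insertions in PB tumours (SD, n = 30; lowest 0, median 2.57, highest 22.8) and 0.349 ± 0.857 in PB tails (SD, n = 12; lowest 0, median 0, highest 2.72). The groups overlapped, with 9 tumours and 10 tails at 0 and the tumour median of 2.57 below the highest tail, at 2.72. Each SE of a log2 fold below is the absolute fold divided by the square root of the F value of edgeR's test. It is approximate and can understate the counting error. The log2 fold of tumours over tails was 2.03 ± 0.61 (SE), with an adjusted p of 0.0286 by edgeR's quasi-likelihood test with Benjamini-Hochberg adjustment, and of the 3305 genes tested 4.45% were called, 2.15% higher and 2.30% lower in tumours, while the median log2 fold of all of them was 0.20. The call, though not the direction, depended on single samples and on the setting: the adjusted p was 0.0621 without PB tumour 5, 0.0686, 0.0532 and 0.0557 without PB tail 2, 10 or 12, and 0.0841 (log2 fold 1.52) when only insertions of at least 10 reads were counted, which 20 of 51 tumour and all 3 tail insertions reached. Over the fits that left out 1 sample the log2 fold stayed between 1.82, without PB tumour 5, and 2.82, without PB tail 4, which held 2 of the 3 tail insertions. Within the joined names the log2 fold was 1.69 ± 0.85 (SE, adjusted p = 0.293), and within the separated names 2.13 ± 0.94 (SE, adjusted p = 0.264), both by the same edgeR test.

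**Figure D3:**
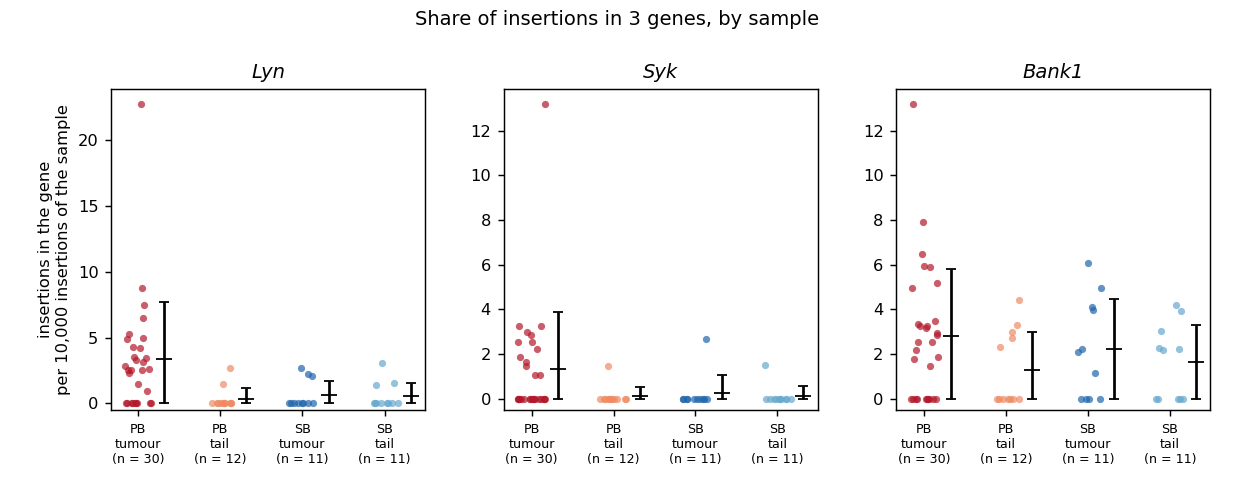
Insertions in Lyn, Syk and Bank1 per 10000 insertions of each sample (points), with the group mean and SD beside them (lower arms end at 0), for PB (30 tumours, 12 tails) and SB (11 of each). PB tumours reach 22.8 in Lyn and 13.2 in Syk and in Bank1, yet every group has samples at 0. Both values of 13.2 are PB tumour 13, with 1 insertion in each of these genes and 757 in all.

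Along Lyn, the insertions of PB tumours lay entirely in introns or downstream. Intron 1 held 26 of 51 (51.0%), close to its share of the gene's TTAA sites (53.3%), and the insertions there came from 14 tumours. Intron 10 held 10 insertions (19.6%, with 15.9% of the sites) from 4 tumours, and 6 of them belonged to PB tumour 5. Those 6 lay within 10.8 kb of each other, at 91.9 to 103 kb from the start of the gene, all in the direction of the gene, and had between 19 and 151 reads. The best-covered Lyn insertion of the series, in PB tumour 1 with 453 reads, rank 24 of the 3952 insertions of that tumour, lay in the same intron, at 102 kb and in the same direction. Over all of Lyn, 29 insertions pointed along the gene and 22 against it.

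Orientation was tested over tumours rather than insertions, because insertions of 1 tumour can share a clone. More Lyn insertions pointed along the gene than against it in 14 tumours, and fewer in 5 (exact two-sided sign test, p = 0.0636, adjusted p = 1.0 over 2389 genes). None of the 2389 genes, those with at least 10 insertions in PB tumours, was called by this test (0% called, 62 with an unadjusted p below 0.05). The genes tested included Syk with 5 insertions along and 10 against, Blnk with 6 and 8, Bank1 with 21 and 16, and Prkcb with 10 and 11. With few tumours per gene and adjustment over so many genes, the lack of calls says little about orientation. Over the 9 genes, 81 insertions of PB tumours pointed along the gene and 77 against it, and 1 site carried both.

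**Figure D4:**
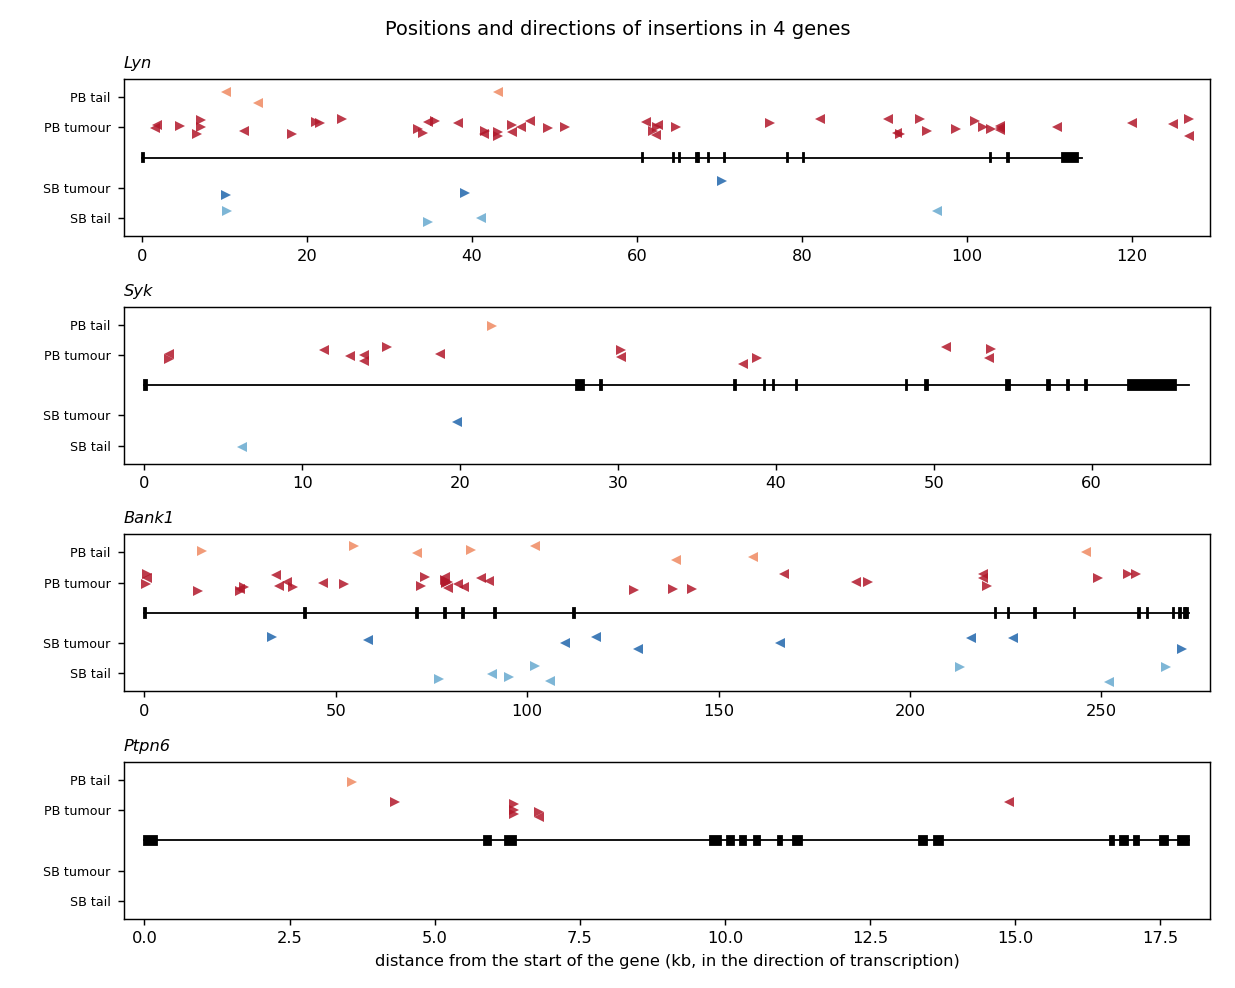
Insertions along Lyn, Syk, Bank1 and Ptpn6 by distance from the start of the gene (kb, in the direction of transcription); black boxes are exons of the widest curated RefSeq transcript, triangles pointing right lie in the direction of the gene and those pointing left against it, and the vertical scatter within a row has no meaning. The Lyn insertions at 91.9 to 103 kb include 6 of PB tumour 5, and 3 PB tumours share the Ptpn6 exon 3 site at 6.37 kb.

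Syk, the kinase that carries the signal from the receptor to the adaptor, spans 66.2 kb of the plus strand of chromosome 13 (chr13:52582610-52648792) with 238 TTAA sites. PB tumours held 15 insertions in 13 of 30 tumours, 11 of them with 1 and 2 with 2, whereas each of the other groups held a single insertion. The 15 were set against 3.02 expected, a ratio of 4.97 (95% interval 2.78 to 8.19, Bonferroni-adjusted Wald p = 5.92e-06), which was past the threshold without any single tumour (ratio 4.54 to 5.24). The ratio was 5.43 in tumours with joined names and 3.20 in those with separated names, where the adjusted p was 1.0.

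Against PB tails, the log2 fold of Syk was 1.39 ± 0.71 (SE), which did not pass (edgeR, adjusted p = 0.300). Without PB tail 8, the tail with the Syk insertion, it was 2.23 ± 0.80 (SE, edgeR, adjusted p = 0.108). Its rate was 1.33 ± 2.54 per 10000 insertions in PB tumours (SD, n = 30) and 0.123 ± 0.425 in PB tails (SD, n = 12), and the highest value, 13.2, belonged to PB tumour 13, where it was 1 of 757 insertions. Intron 1 held 8 of the 15, and the shared sites printed above account for 6 of the 15: 2 in intron 3 at 30.2 kb, 2 in intron 1 at 13.9 kb and 2 in intron 1 at 1.57 kb. At the intron 3 site the insertion of PB tumour 18 had 276 reads (rank 19 of 6000) and that of PB tumour 13 had 22 reads (rank 40 of 757), and they pointed in opposite directions. Of the 15 Syk insertions, 4 (26.7%) ranked in the top 10% of their tumour by reads, as did 10.4% of all insertions of PB tumours.

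Blnk, the adaptor that SYK phosphorylates, spans 65.3 kb of the minus strand of chromosome 19 (chr19:40928927-40994221) with 344 TTAA sites. PB tumours held 14 insertions in 9 of 30 tumours, of which PB tumour 8 had 4 and PB tumour 7 had 3. With 4.98 expected the ratio was 2.81 (95% interval 1.54 to 4.72), which did not pass Bonferroni adjustment (unadjusted Wald p = 5.43e-05, adjusted p = 1.0) and did pass Benjamini-Hochberg adjustment (7.70e-04). Blnk insertions were read thinly, with a median of 4.50 reads, and only 1 of 14 reached 10 reads, so that with that minimum the ratio was 0.552. Tails and SB tumours held 2 or 3 insertions per group, and the log2 fold over PB tails was 0.76 ± 0.66 (SE, edgeR, adjusted p = 0.572). Intron 1 held 8 of the 14 (57.1%), with 32% of the sites.

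Bank1, the scaffold that binds LYN, is a far longer gene, 273 kb on the minus strand of chromosome 3 (chr3:136053363-136326141) with 1877 TTAA sites, and was hit in every group. PB tumours held 37 insertions in 20 of 30, PB tails 8 in 5 of 12, SB tumours 9 in 7 of 11 and SB tails 8 in 6 of 11. The ratio in PB tumours was 1.78 (37 against 20.7 expected, 95% interval 1.26 to 2.46) and was not called (unadjusted Wald p = 2.17e-04, adjusted p = 1.0). Against the rate of the 500 kb on either side of the gene instead of its chromosome the ratio fell below 1, to 0.742, whereas with at least 10 reads per insertion it was 2.85 and was called (adjusted p = 0.0101).

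The log2 fold of Bank1 over tails was 0.48 ± 0.53 (SE) in PB and 0.34 ± 0.66 (SE) in SB, and neither passed (edgeR, adjusted p = 0.668 and 0.936; in SB 0.801% of 1124 genes tested were called, 0.623% higher and 0.178% lower in tumours). Its rates per 10000 insertions overlapped widely, at 2.81 ± 3.01 in PB tumours (SD, n = 30), 1.31 ± 1.69 in PB tails (SD, n = 12), 2.24 ± 2.24 in SB tumours (SD, n = 11) and 1.63 ± 1.68 in SB tails (SD, n = 11). Single Bank1 insertions were among the best covered of their tumours. The insertion of PB tumour 11 in intron 2 had 3267 reads, 1.09% of the reads of that tumour, and ranked 4 of 9445, and that of PB tumour 9 in intron 1 had 808 reads, 0.871% of the tumour's reads, and ranked 13 of 6768. Both pointed against the gene, as did the insertion of PB tumour 29 in intron 5 with 773 reads (rank 61 of 3360).

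Within Bank1 the PB tumour insertions were unevenly spread. Intron 4, which holds 2.50% of the sites, held 7 of 37 insertions (18.9%), from 7 tumours, at 78.5 to 81.9 kb from the start, 4 along the gene and 3 against it. The densest 10 kb of the gene covered this intron and part of intron 5 and held 9 insertions of 8 tumours and 1 of a tail, at 96 of the 1877 sites. Intron 1 held 11 insertions (29.7%, with 14.5% of the sites), and the largest intron by sites, intron 7 with 40.5%, held 9 (24.3%). These windows were chosen by their counts, so they are given without a test.

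Plcg2 and Prkcb encode the enzymes that follow BLNK. Plcg2 (137 kb, plus strand, chr8:117498275-117635142, 455 TTAA sites) had 8 insertions in 7 PB tumours against 4.64 expected, 1 in PB tails, 5 in 4 SB tumours and 4 in 4 SB tails. Its ratio was 1.72 (95% interval 0.744 to 3.40) in PB tumours and 2.62 (95% interval 0.850 to 6.11) in SB tumours, and neither was called (unadjusted Wald p = 0.0616 and 0.0157, both 1.0 after Bonferroni adjustment). In SB tumours the ratio was 1.64 without SB tumour 8, which held 2 of the 5 insertions, and 1.78 with at least 10 reads. In PB tumours 6 of the 8 lay in intron 2 (75.0%, with 37.4% of the sites), and 1 of the 8 had 10 or more reads.

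Prkcb (345 kb, plus strand, chr7:122289104-122634402, 1567 TTAA sites) is the longest of the genes and was hit about as often as its sites allow, with 21 insertions in 14 PB tumours against 16.5 expected, a ratio of 1.28 (95% interval 0.788 to 1.95). PB tails held 3, SB tumours 3 and SB tails 4, and the log2 fold over PB tails was 0.84 ± 0.63 (SE, edgeR, adjusted p = 0.509). Against the insertions of gene bodies or of the 500 kb on either side, the ratio in PB tumours was below 1 (0.883 and 0.809). Intron 2 held 15 of the 21 (71.4%, with 40.6% of the sites), and none ranked in the top 10% of its tumour by reads. The site shared by the most samples lay here, in intron 5 at 177 kb, and was hit in tails as in tumours.

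The inhibitory genes Cd22 and Ptpn6 are short, and few insertions carried their results. Cd22, the inhibitory coreceptor, spans 14.9 kb of the minus strand of chromosome 7 (chr7:30865404-30880342) with 44 TTAA sites. Its 5 insertions came from 4 PB tumours (7, 11, 15 and 23), and tails and SB tumours had none, at expected numbers of 0.143 to 0.175 per group. The ratio of 10.8 (95% interval 3.51 to 25.3, Bonferroni-adjusted Wald p = 0.00113) was no longer past the threshold when any 1 of these 4 tumours was left out (ratio 6.88 at the lowest), nor with an exact Poisson test (adjusted p = 1.0). Read numbers were 2, 3, 5, 6 and 20. At the intron 2 site printed above PB tumour 15 had insertions on both strands and PB tumour 11 on 1, and the insertion of PB tumour 23 lay in the 3′ untranslated region.

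Ptpn6, encoding the phosphatase SHP-1, spans 18 kb of the minus strand of chromosome 6 (chr6:124720707-124738709) with 50 TTAA sites. PB tumours held 7 insertions in 6 of 30 tumours against 0.565 expected, a ratio of 12.4 (95% interval 4.98 to 25.5, Bonferroni-adjusted Wald p = 3.10e-07), and PB tails held 1 against 0.170 expected, a ratio of 5.88 (95% interval 0.149 to 32.8). The call held without any single tumour (ratio 9.29 to 13.3) and was at an adjusted p of 0.0502 with an exact Poisson test. SB tumours and SB tails had no insertion, at 0.223 and 0.273 expected, which is too few to show a lack.

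Of the 9 genes, Ptpn6 alone had insertions in coding sequence. The TTAA in exon 3 was hit in PB tumours 1, 22 and 23, each time in the direction of the gene, with 81, 2 and 10 reads, and is 1 of 50 TTAA sites of the gene. The intron 3 site, at 6.79 kb against 6.37 kb for the exon 3 site, was hit in PB tumours 10 and 23, once in each direction. In PB tumour 1 the exon 3 insertion ranked 201 of 3952 by reads, in PB tumour 15 that in intron 11 ranked 693 of 9016, and the remaining 5 of the 7 lay outside the top 10%. Of the 159 insertions of PB tumours, 151 (95%) fell in introns. Besides the 3 in Ptpn6 exon 3, 4 lay downstream of Lyn and 1 in the Cd22 untranslated region. All 67 insertions of the other groups fell in introns. Introns also make up most of the length of each of these genes, so the share is no measure of a preference for introns.

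Whether the tumours' difference from tails depended on the transposon was tested with the interaction of system and tissue. No gene was called (0% of 4291 tested, edgeR, 392 genes with an unadjusted p below 0.05, smallest adjusted p 0.169). For Lyn, the log2 fold of SB was lower than that of PB by 2.14 ± 1.16 (SE, adjusted p = 0.555), an estimate that rests on 3 SB tumour and 4 SB tail insertions. Syk, Blnk, Bank1, Plcg2 and Prkcb had adjusted p-values between 0.815 and 1.0. Their standard errors, approximate as above, were 0.60 to 1.44 on the log2 scale.

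Read numbers order the insertions within a sample, and few of the 9 genes' insertions stood near the top. In PB tumours 21 of 159 (13.2%) were in the top 10% of their sample, against 10.4% of all insertions, and 4 were in the top 1%. The share in the top 10% was 2 of 19 in PB tails (10.5%), 1 of 24 in SB tumours (4.17%) and 5 of 24 in SB tails (20.8%). Of the 4 in the top 1% in PB tumours, 2 lay in Bank1, 1 in Syk and 1 in Lyn. In PB tumours Blnk, Plcg2, Prkcb and Cd79b had none in the top 10%. In the other groups the best-ranked insertion of these genes ranked 211 in PB tails, 222 in SB tumours and 225 in SB tails. Of the 159 insertions, 62 had at least 10 reads, and with that minimum Lyn, Syk and Ptpn6 were still called in PB tumours (ratios 6.69, 7.37 and 19.7) and Cd22 was not.

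**Figure D5:**
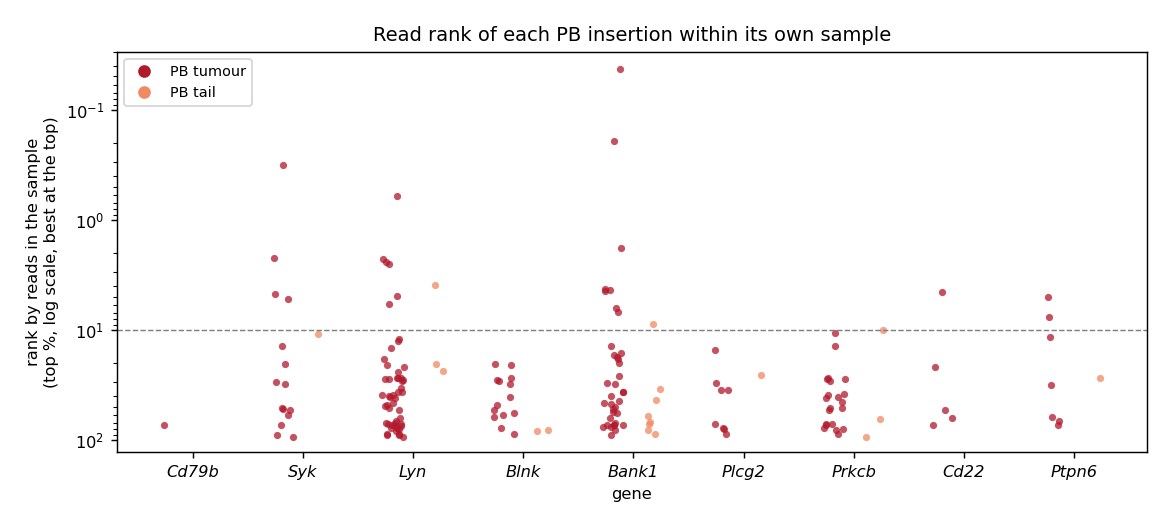
Rank by reads of each PB insertion within its own sample, as the top percentage (log scale, best covered at the top), by gene for PB tumours and PB tails; the dashed line marks the top 10%. In all, 2 insertions in Bank1, 1 in Syk and 1 in Lyn lie above 1%, all in tumours, and most insertions lie below the line.

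A list of 50 further genes of the pathway was described in the same way, of which 45 were tested. Blk, Prkcd and Ppp3cb lie on the donor chromosome 14, Btk on the X chromosome, and Ighm was not among the gene bodies used. In PB tumours 19 of 45 were called, in PB tails 3, in SB tumours 4 and in SB tails 1. The shares of all genes are given above, but the list was chosen with earlier results of these data known. The count is therefore no independent evidence of an excess. Those shares also cover genes with few sites, and the median expected number over all genes tested in PB tumours was 0.863. The median ratio over the 45 was 2.83 in PB tumours and 1.17 in PB tails. Of the 3 called in PB tails, Pik3r1 and Vav3 had higher ratios there (10.5 and 3.73) than in PB tumours (4.69 and 2.04). Cblb had a lower ratio in PB tails (3.50) than in PB tumours (5.98). By the role under which each gene was listed, PB tumour calls fell on 0 of 4 receptor and coreceptor genes, 2 of 2 kinases, 7 of 12 adaptors and exchange factors, 1 of 10 inhibitory genes and 9 of 17 downstream genes. The inhibitory group held receptors, phosphatases and their adaptors, and other negative regulators were listed elsewhere, with Cblb and Pag1 among the adaptors and Csk among the kinases, all 3 of them called in PB tumours.

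The 10 with the smallest adjusted p were Cblb, Inpp5d, Malt1, Ppp3ca, Pag1, Nfatc1, Fyn, Grb2, Dapp1 and Stim2. Ppp3ca was the pathway gene called in SB tails (20 insertions in 7, ratio 3.33), and it was not called in SB tumours (ratio 1.62). None of Inpp5d, Cblb and Malt1 was called in the test against tails. Inpp5d, encoding the lipid phosphatase SHIP-1 that acts with the inhibitory receptors, was hit 40 times in 20 PB tumours (ratio 8.58) and 8 times in 6 SB tumours (ratio 5.66), and was called in both by the selection test. Cblb, a ubiquitin ligase that limits the signal, was called in PB tumours (94 insertions in 28, ratio 5.98) and SB tumours (20 in 6, ratio 5.69), but also in PB tails (17 in 8, ratio 3.50). Malt1, the protease on the way to NF-kappaB, had a ratio of 8.55 in PB tumours and 15.1 in SB tumours and was called in both by the same test. It was hit in tails too, in 6 of 12 PB tails (ratio 4.02) and 4 of 11 SB tails (ratio 2.82), where it was not called, and its log2 fold of tumours over tails did not pass (0.88 ± 0.55 SE in PB and 1.87 ± 0.66 SE in SB, edgeR, adjusted p = 0.396 and 0.193). Of the 9 genes described above, none was called in both systems.

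Fyn, the Src-family relative of LYN, had 52 insertions in 25 PB tumours (ratio 4.48), and Pag1, the membrane adaptor that recruits the Src-inhibiting kinase CSK, 49 in 20 (ratio 5.85). Against tails, 1 of 22 pathway genes tested was called, the adaptor Dapp1, with 24 insertions in 16 PB tumours and none in PB tails (edgeR, adjusted p = 0.0142), a share close to the 4.45% of all genes tested. In SB none of 9 was called, where 0.801% of all genes tested were. Only 5 of the 9 members of the main list, Lyn, Bank1, Prkcb, Syk and Blnk, reached the 10 insertions needed for that test in PB, and Bank1 alone did in SB.

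The only RefSeq gene that overlaps 1 of the 9 is the lncRNA 6330407A03Rik, in intron 1 of Lyn on the same strand (chr4:3714964-3716813), and 1 of the insertions assigned to Lyn lay inside it. Promoter windows of RefSeq, 250 bases before to 50 after a start, were at hand for 7 of the genes (8 windows, without Lyn and Cd79b). They contained 6 TTAA sites in all and no insertion. By place of the tumour, Lyn was hit in 6 of 6 mesenteric lymph nodes, 6 of 9 mesenteric masses, 5 of 8 other lymph nodes and 4 of 6 spleens, and Syk in 2, 4, 2 and 4 of these, while the 1 tumour of another site carried Syk but not Lyn.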

How the data were processed

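Insertions in tumours and tails of 64 mice were analysed. The authors deposited raw read counts, not normalized, for 385883 insertion positions with strand and a gene name, from splinkerette PCR of both transposon ends (QiSeq) and 75 bp paired-end MiSeq sequencing, on mm10. The aligner, caller and read filters are not given in the sources used here. No line had fewer than 2 reads, and 1 column of normalized coverage was not used. Of the gene names, 423 lines held date-like text.

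Each position was assigned to its closest target motif, TTAA for PB and TA for SB, if 1 lay within 5 bp, and counted once per sample and site, leaving out the sex chromosomes and chromosome 14, taken as the donor since it held the most insertions per base in both systems. Reads per sample had group medians of 104091 to 136579. Expected numbers used RefSeq gene bodies of GRCm38 and chromosome totals, with sample totals only where 1 insertion was counted per sample and gene. Tumours and tails were compared with edgeR's quasi-likelihood test on insertions per deposited gene name, at least 10 insertions per system, with total insertions as library size. Standard errors of log2 folds were back-calculated from the fold and the F value of that test. Orientation used exact sign tests over tumours. Introns are numbered on the widest curated transcript. The 9 genes, all other genes overlapping them, the sites in the most samples (8 at most) and the 10 called pathway genes with the smallest adjusted p were named. The genes and lists were chosen with earlier results of these data known. Scripts were tested on simulated data. Python 3.11.15, numpy 2.4.6, pandas 2.3.3, scipy 1.17.1, matplotlib 3.10.9, R 4.3.3, edgeR 4.0.16 and DESeq2 1.42.0 were used. Predicted insertion rates from chromatin were not used here.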

Additional observations from a re-analysis of the deposited data

How the results depend on the processing

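In PB tumours, where 1121 genes were called, the count was 646 with an exact Poisson test, 2851 with Benjamini-Hochberg adjustment, 497 with 1 insertion per sample and gene, 659 with expected numbers from gene bodies only, 480 with at least 10 reads and 209 in samples with separated names. For SB tumours (95) these were 33, 307, 16 and 61 under the first 4 settings. PB tumours against tails gave 147 genes, 54 with DESeq2, 71 with no insertion minimum above 1, 7 with Fisher's exact test on samples hit, and 33 and 28 within joined and separated names. SB gave 9, 2 with DESeq2 and 1 with Fisher's exact test. The interaction called 1 gene in place of 0 with at least 10 reads. Leaving out single samples gave 1038 to 1116, 74 to 96, 118 to 163 and 8 to 13 genes in these 4 comparisons.

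Of the 9 genes, Lyn kept its call in PB tumours except within separated names (0.0535), Syk except there (1.0), Ptpn6 except there (0.863) and with the exact Poisson test (0.0502). Cd22 lost it in 6 of 8 settings. Against tails Lyn lost it in 7 of 10: DESeq2 (0.125), no minimum (0.182), at least 10 reads (0.0841), Fisher (0.193), name form as covariate (0.0727) and within each form. It kept it with TMM (0.0144), RefSeq gene bodies (0.0450) and, chosen after seeing the data, insertions in named genes as library size (0.0413). Uncalled ratios that crossed 1 in PB tumours were Prkcb (0.883 from gene bodies, 0.809 from flanks, 0.868 with 10 reads, 0.566 in separated names), Bank1 (0.742 from flanks), Blnk (0.552 with 10 reads, 0.983 in separated names), Plcg2 (0.592 with 10 reads) and Cd79b (0 under both, and without tumour 15). In SB tumours these were Syk (1.72 from flanks, 1.56 with 10 reads, 0 to 1.23 leaving out single tumours), Bank1 (0.924 from flanks) and Lyn (0.768 with 10 reads, 0.963 to 1.70 leaving out single tumours). Leaving out single tumours, Cd79b in PB ranged from 0 to 9.47. The cause was not tested. No paired analysis was possible because every sample came from a different mouse and its number is only an order. A gene with few motif sites expects under 1 insertion per group, so depth limits Cd79b, Cd22 and Ptpn6.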
